A study of Homo sapiens with 8 samples.

Results

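The cells were Saos-2, an established osteosarcoma line of human origin that lacks p53, the tumour suppressor that switches on genes of arrest and death after damage. The comparison described here set cells treated for 12 h with a compound the labels call Prima against cells treated for 6 h with the same compound. It used 5 of the 8 arrays of the series, chosen by their labels: 12 h replicates 1 and 3 (2 arrays) and 6 h replicates 1, 2 and 3 (3 arrays), of which numbers 1 and 3 were taken as pairs. The 3 untreated arrays entered the shared estimate of the spread and are shown beside the results. All groups carry the same p53-null background, and dose and vehicle are not given in the sources used here. The question was what changed between 6 h and 12 h of exposure in cells without p53. Values are MAS5 signals, a linear brightness scale on which every array has a 2% trimmed mean of 100.01, and 12063 of 19775 genes were bright enough to be tested. Nothing in the labels says that replicates were separate cultures, and a p-value here sets a difference against the scatter of these arrays, part or all of which may be technical.

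A cell that meets stress over several hours commonly runs through programmes with known outputs. When amino acids run short or the endoplasmic reticulum is strained, phosphorylation of eIF2 raises translation of ATF4, a transcription factor that then induces amino acid transporters and synthetases. Progress through the cell cycle is read from genes of DNA replication, driven by E2F factors, and from genes of mitosis, held back by the DREAM complex and driven by MYB-MuvB and FOXM1. Contractile and matrix genes answer to actin dynamics through SRF and to cell spreading through YAP.

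Among osteoblast genes RUNX2 and COL1A1 were bright on every array. RUNX2, the master transcription factor of the lineage, read from 1411 to 2350 on the 8 arrays, and COL1A1, the main bone collagen chain, from 2764 to 4801, while IBSP, bone sialoprotein, was dim at 32.1 to 77.4. Of the marker genes of other cells with a probe set, 11 of 12 for leukocytes, 10 of 11 for endothelium and 12 of 12 for skeletal muscle had a mean signal under 50. So did 12 of 14 for epithelial cells and 8 of 11 for neurons, and the brightest in these lists were KRT18 at 919 and TUBB3 at 1472. The replicate 2 arrays had a higher dim end, with median signals of 50.9 (untreated) and 47.5 (6 h) against 14.2 to 24.95 on the others, and 12 h has only numbers 1 and 3. The 3′ to 5′ signal ratio of ACTB, which rises as RNA degrades, reached 1.73 at 6 h and 2.29 at 12 h in replicate 1. It was at most 1.38 on the other 6 arrays. The same ratio of GAPDH differed little, at 0.98 and 1.04 on those replicate 1 arrays and 0.93 to 1.01 on the other 6. What part RNA quality had in the results was not tested.

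One array of the comparison, 6 h replicate 1, read far from the other 7 at a set of genes. DSG2, a desmosomal cadherin, read 1.74 on that array and 126 to 352 on the other 7. TMEM98, a membrane protein, read 2.31 against 165 to 214, and GPX1, the main cytosolic glutathione peroxidase, read 4.05 against 173 to 318. TAGLN, an actin-binding protein of contractile cells, read 279 against 2064 to 2623, and CNN1, calponin, read 83.5 against 939 to 1302. In the other direction DKK1, a secreted inhibitor of WNT signalling, read 1762 against 126 to 240.1, SELENOP, a selenium carrier, read 1656 against 61.1 to 172, and VCAN, a matrix proteoglycan, read 1105 against 104 to 217. These genes were picked after their values were seen, as those that set the array apart. Osteoblast genes differed among themselves on it: RUNX2 (2350) and COL1A1 (4801) were at their highest of the 8 arrays and SPARC, osteonectin, at its lowest (1319).

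**Figure D1:**
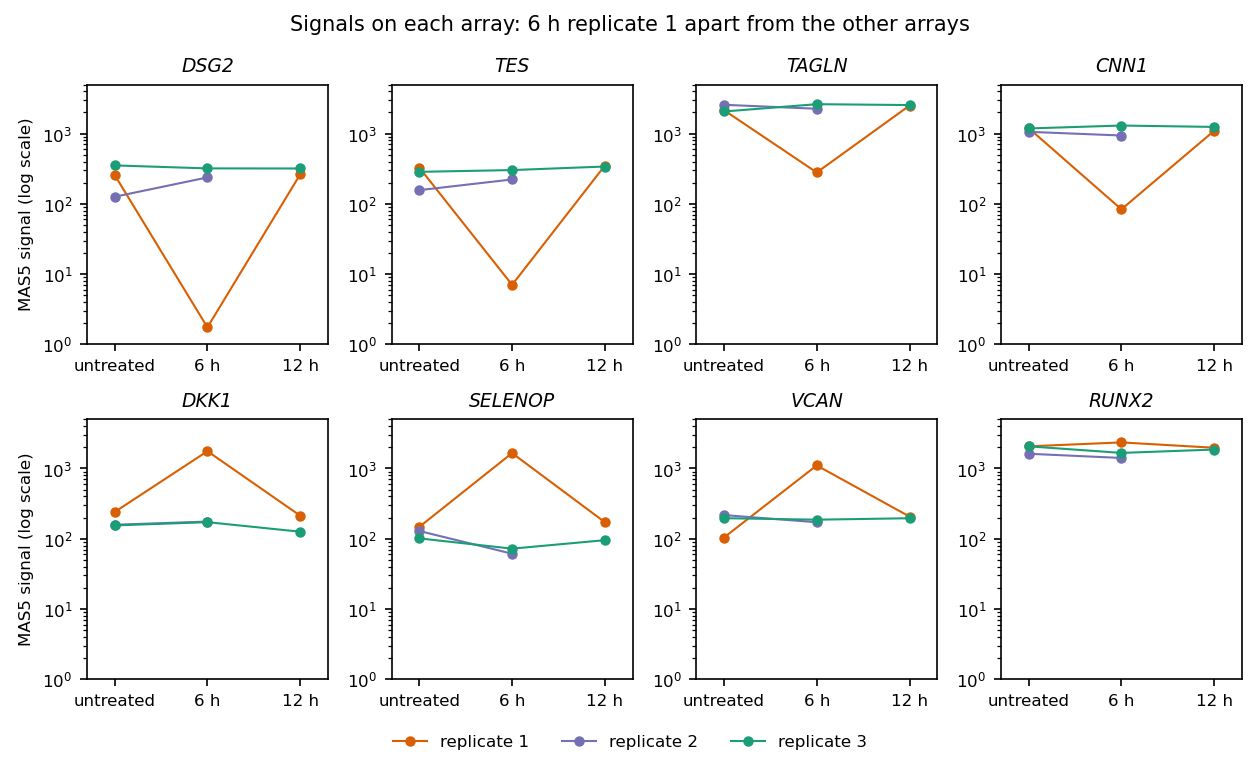
MAS5 signal (log scale) of 8 genes on every array, in 3 columns for untreated, 6 h and 12 h, with arrays of the same replicate number joined by a line. On 6 h replicate 1 DSG2, TES, TAGLN and CNN1 lie far below and DKK1, SELENOP and VCAN far above every other array, while RUNX2 stays between 1411 and 2350 on all 8.

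Counted over genes, 139 read at least 2-fold below and 96 at least 2-fold above all 7 other arrays on 6 h replicate 1, counting genes with a median of at least 100 on the other 7 arrays for the first and a signal of at least 100 on that array for the second. By the same count untreated replicate 2 had 64 below and 128 above and 6 h replicate 2 had 56 below and 107 above. The other 5 arrays had at most 3 genes on either side. At 4-fold the counts below were 65 for 6 h replicate 1, 12 for untreated replicate 2 and 8 for 6 h replicate 2. On the other replicate 1 arrays TAGLN, for one, stood at 2154 in untreated cells and 2505 at 12 h. What set the array apart was not tested, and results that rest on it are given with per-array values, the replicate 3 pair or a value without it.

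No gene passed the test between 12 h and 6 h. With limma, 0 of 12063 genes (0%) had a Benjamini-Hochberg adjusted p under 0.05, and the smallest was 0.99998. At an unadjusted p under 0.05 stood 88 genes, 44 higher and 44 lower at 12 h, and chance alone would give 603. With the replicate number as a block, which compares arrays of the same number, no gene passed either (0), 297 stood at an unadjusted p under 0.05, and the smallest adjusted p was 0.972. The median SE of a log2 difference was 0.39, and 0.29 with the block. Data of the same size were simulated without a replicate effect and with the same scatter of a gene on every array. There the fit without the block found 7.01% of the changes at 2-fold, 47% at 4-fold and 67.6% at 8-fold. By that count changes of about 2-fold were mostly not detectable in data of that kind. The real arrays did not scatter alike, with 6 h replicate 1 and both replicate 2 arrays apart, so the power on them was not measured. The block fit found 0.448%, 23.3% and 50.5% in data with a replicate shift added on top of the full scatter. On these arrays the block lowered the SE, so its power here was not measured. Directions given below are therefore descriptions of these arrays.

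The pairs did not share their differences. Across the 12063 genes the 12 h minus 6 h difference of replicate 1 and that of replicate 3, which have no array in common, correlated at r = 0.009 (Spearman's rho = -0.01; genes are not independent replicates), and 49.6% of genes had the same sign in both. The replicate 1 differences were wider, with an SD of 0.85 on the log2 scale against 0.43 in replicate 3. Among the 5113 brightest genes (mean signal of 200 or more) the SDs were 0.59 and 0.17 and r was -0.06. Of genes with a mean signal of at least 100 over the replicate 1 pair, 314 were at least 2-fold higher at 12 h in the replicate 1 pair, and their median difference in the replicate 3 pair was -0.02, with 143 of them above 0 there and 0 at 2-fold. The 213 that were at least 2-fold lower had a median of 0.07 in replicate 3, with 83 below 0 there and 2 at 2-fold. Chosen the same way in the replicate 3 pair, 4 genes were 2-fold higher and 6 were 2-fold lower, and 1 and 3 of them went the same way in replicate 1.

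**Figure D2:**
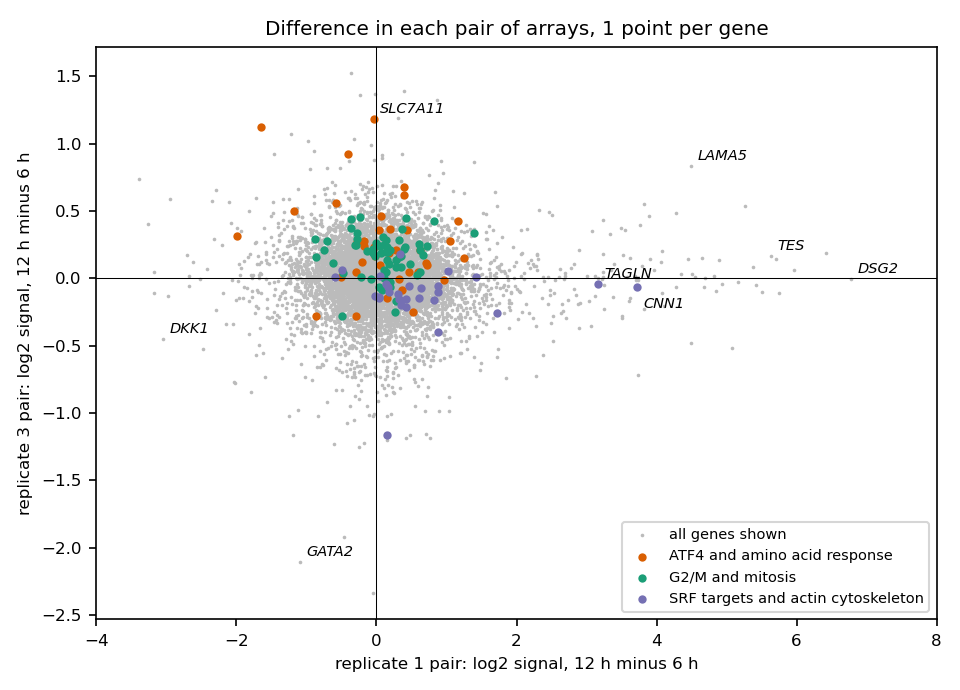
Log2 difference in MAS5 signal, 12 h minus 6 h, in the replicate 1 pair (x axis) and the replicate 3 pair (y axis), 1 point per gene with a mean signal of at least 50, with 3 gene lists in colour. The cloud is wide along x and narrow along y (SD 0.85 and 0.43 over all genes tested), and TAGLN, CNN1, TES and DSG2 lie far to the right at a replicate 3 difference near 0.

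The genes whose 12 h arrays both read above all 6 h arrays were led by genes that were low on 6 h replicate 1. Both 12 h arrays lay above all 3 6 h arrays for 857 genes (7.1%) and below them for 543 (4.5%). PAGE5, a cancer-testis antigen, read 4.75, 12.9 and 65.5 at 6 h and 92.3 and 91.8 at 12 h. Its log2 difference was 2.53 ± 0.85 (SE), and 1.66 without 6 h replicate 1. Both 12 h arrays were high and alike, and the 6 h arrays spread over the whole range below them. LAMA5, a laminin chain of basement membranes, read 4.28, 45.2 and 75.4 at 6 h and 96.2 and 134 at 12 h, a log2 difference of 2.22 ± 0.93 (SE) that was 0.96 without that array. Of the 12 largest differences of this kind it had the largest replicate 3 difference, at 0.83. CBLN2, a secreted synaptic organiser, read 2.42, 31.5 and 53.4 against 92.5 and 77.6, with pair differences of 5.26 and 0.54. RBP4, the retinol carrier, read 27.1, 22.3 and 105 against 132 and 112, and here both 6 h replicates 1 and 2 were low, while the replicate 3 pair differed by 0.09.

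The rest of the 12 largest differences of this kind repeat the dip on a single array. TMEM98 read 2.31, 184 and 166 at 6 h against 204 and 189.5 at 12 h, TES, a focal adhesion protein, read 7.03, 222 and 302 against 350.4 and 339.7, and PERP, a desmosomal membrane protein, read 4.94, 174 and 183 against 258 and 202. Their log2 differences of 2.23, 2.15 and 2.08 became 0.17, 0.41 and 0.36 without 6 h replicate 1. GRB10, an adaptor that damps insulin receptor signalling, and GPC6, a glypican, had replicate 3 differences of 0.55 and 0.43 against 3.83 and 3.24 in replicate 1. PLD5, THBS2, a matricellular thrombospondin, and TFCP2, a transcription factor, complete the group, with replicate 3 differences of 0.46, 0.35 and 0.11. Of the 4 other probe sets of PERP 1 went the same way, and the 1 other of PLD5 did not.

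Of the genes that read below all 6 h arrays at 12 h, the 12 with the largest differences were dim at 12 h, while others were brighter, such as DDX59, an RNA helicase picked after its values were seen, at 98.9 and 86.1 against 132, 163 and 181 at 6 h. TIRAP, an adaptor of Toll-like receptors, read 68.5, 190.5 and 31.8 at 6 h and 17.2 and 18.9 at 12 h, a log2 difference of -2.05 ± 0.74 (SE). It was -1.37 without 6 h replicate 2, and all 3 of its other probe sets went the same way. RNF25, a ubiquitin ligase, read 85.8, 79.1 and 49.3 against 11.3 and 25.3, a difference of -2.03 ± 0.70 (SE). The 12 h values of RNF25 lay near those of untreated cells, which read 25.1, 21 and 18.7, so the 6 h arrays are the high ones. LHX4, a LIM homeobox factor, read 119.7, 87.4 and 24.8 against 16 and 21.1, and TOX, an HMG-box factor, read 128, 53.6 and 35.5 against 31.2 and 20.9. The replicate 3 pair differed by -0.75 for TIRAP, -0.96 for RNF25, -0.24 for LHX4 and -0.77 for TOX. In TIRAP and in the other 8 genes of this group the highest 6 h value was on replicate 2, the array with the high dim end. ACACB, an acetyl-CoA carboxylase, read 35.1, 197 and 42.5 at 6 h and 14.2 and 33.5 at 12 h, and the same held for LINC02076, HRH3, PIGR, LEAP2, CAPSL, LOC105372255 and EDAR. The 1 other probe set of TOX and the 1 other of PIGR did not go the same way as the set shown.

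Few genes differed the same way by 2-fold in both pairs. Over all genes 26% were above 0 in both pairs and 23.6% below 0 in both. At 2-fold, 25 genes (0.207%) were higher in both, 55 (0.456%) lower in both and 68 (0.564%) differed in opposite directions, and the 25 higher in both all had a mean signal under 50. The genes described next are the 12 each way whose smaller pair difference was largest among genes with a mean signal of at least 50. ZNF423, a zinc finger factor of mesenchymal lineages, read 36.6, 54.2 and 68.4 at 6 h and 96.2 and 124 at 12 h, with pair differences of 1.39 and 0.86. All 3 6 h arrays were low, and its log2 difference was 1.09 ± 0.40 (SE), or 0.85 without 6 h replicate 1. PYGB, the brain form of glycogen phosphorylase, read 115, 45.6 and 113 against 209.7 and 184, with pair differences of 0.87 and 0.71, although its 1 other probe set did not go the same way. DNASE1L1, a DNase I relative, read 48.4, 42 and 61.5 against 115 and 95.7, and OLFML2B, an olfactomedin-domain protein of the matrix, read 54.4, 72.2 and 42 against 103 and 76.7. Untreated cells read 98.1, 81.4 and 95.8 for ZNF423 and 86.1, 39.4 and 87.5 for DNASE1L1. The 12 h values of ZNF423 lay near or above the untreated ones, and those of DNASE1L1 above all 3. The other members of the 12 higher genes were LAMA5 (above), SENP7, CGNL1, GCA, SYT15, TEAD3, FOXC2 and EPHA5-AS1, and in these last 7 the groups overlapped.

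Among genes lower at 12 h in both pairs by the same rule GATA2, a zinc finger factor of blood and endothelial precursors, read 121, 56.6 and 41.6 at 6 h and 57 and 9.64 at 12 h. Its low value on 12 h replicate 3 gave a replicate 3 difference of -2.11 against -1.09 in replicate 1, and the groups overlapped. PDE5A, the phosphodiesterase that breaks down cGMP, read 276, 111 and 64.4 against 79.7 and 35.9, a log2 difference of -1.23 ± 0.56 (SE) that was -0.66 without 6 h replicate 1. KANSL1L and TCEA2, a transcription elongation factor, had pair differences of -1.25 and -1.03, and of -1.19 and -1.16. EMP1, an epithelial membrane protein, read 874 at 6 h and 291 at 12 h in replicate 1, and 253 and 152 in replicate 3. TOX, AP2A1, SLC26A11, RNASEH2B, SPSB2 and KIF7 were also lower in both pairs by this rule, with replicate 3 differences of -1.02 for AP2A1, an adaptor of clathrin coats, and -0.73 for RNASEH2B, a subunit of RNase H2. None of the 3 other probe sets of AP2A1 went the same way. KIF7, a kinesin of Hedgehog signalling, was at -0.92 and -0.76 in the pairs but 0.10 over all arrays, with 10.1 on 6 h replicate 2.

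The ATF4 and amino acid response genes had medians above 0 in both pairs, with 35 of 42 tested members above 0 over all arrays. Over all genes 57.2% were above 0. Shares as high occurred in other lists, such as 51 of 59 oxidative phosphorylation genes and 27 of 31 proteasome genes. The oxidative phosphorylation list had 11 above 0 in both pairs and 14 below 0 in both, and the proteasome list 7 and 9. Of the ATF4 list members 21 were above 0 in both pairs and 2 below 0 in both (26% and 23.6% of all genes). The median log2 difference was 0.28 (0.06 over all genes), 0.17 in replicate 1 and 0.24 in replicate 3 (0.03 and 0.00 over all genes). In 9 members both 12 h arrays lay above all 6 h arrays (7.1% of all genes). None passed the test. The median was 0.31 without 6 h replicate 1, 0.22 with the replicate block and 0.17 with quantile normalization. In the same pairs the list's 6 h minus untreated medians were 0.04 and 0.04, and its 12 h minus untreated medians 0.19 and 0.26.

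ATF4 itself read 1210.3, 966 and 1233 at 6 h and 1464 and 1427 at 12 h, a log2 difference of 0.36 ± 0.26 (SE). That difference was 0.24 without 6 h replicate 2. Both 12 h arrays were above every 6 h array, and the untreated arrays read 1155, 825 and 1179. SLC7A11, the cystine transporter that feeds glutathione synthesis, read 322, 150.1 and 251 at 6 h and 313 and 571 at 12 h. The difference was in 1 pair: replicate 3 differed by 1.18 and replicate 1 by -0.04, so the groups overlapped. The log2 difference of SLC7A11 was 0.88 ± 0.37 (SE), and 0.57 without 6 h replicate 2. Of its 2 other probe sets 1 went the same way. ASNS, asparagine synthetase, read 214, 197 and 210.2 against 281 and 336, with pair differences of 0.39 and 0.68, although its 1 other probe set went the other way and the mean of both gave -0.27. SLC7A5, the large neutral amino acid transporter, read 204, 288 and 331 against 482 and 368, and VEGFA, the angiogenic growth factor, 546, 444 and 661 against 888 and 715. In both the replicate 1 pair differed more (1.24 and 0.70) than the replicate 3 pair (0.15 and 0.11).

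The stress factors downstream of ATF4 did not all point one way. CHAC1, which degrades glutathione, was dim at 41.5, 22.1 and 19 and then 51.8 and 43.6, with pair differences of 0.32 and 1.20. ATF3 read 89.99, 103 and 109 against 121 and 139.7, with 0.43 and 0.36, and neither of its 2 other probe sets went the same way. DDIT3, the pro-death factor CHOP, was lower at 12 h on both arrays, at 94.9, 128 and 111 and then 52.2 and 91.3, with -0.86 and -0.28. TRIB3, a pseudokinase that restrains ATF4, and DDIT4, an inhibitor of mTORC1, split by pair, at -0.41 and 0.93 for TRIB3 and -1.65 and 1.13 for DDIT4. On 6 h replicate 1 DDIT4 read 479.6 against 116 and 131 on the other 6 h arrays.

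The promoters of the list were read for the CARE element, the composite C/EBP-ATF site that ATF4 binds with a C/EBP partner. The letters searched were TGATGNAA on both strands in the 250 bases before the start, a search chosen after the values were seen. In RefSeq promoters (GRCh38.p14) 4 of 36 matched list members held it (11.1%), against 1.57% of the 9890 tested genes with a promoter sequence. The list was made of known ATF4 response genes, so a higher share is partly built in. The 4 were ASNS, CHAC1, ATF3 and AARS1. Their median replicate 1 and replicate 3 differences were 0.35 and 0.52, against 0.06 and 0.22 in the matched members without it. The 155 tested genes with these letters had medians of -0.02 and 0.05, and the tested genes without them 0.04 and 0.001. AARS1, alanyl-tRNA synthetase, split by pair at -0.28 and 0.27. The stretches of the first 3 are shown because these genes read higher at 12 h in both pairs on the probe set used, and capitals mark the match.
ASNS, chr7:97872439-97872518, minus strand: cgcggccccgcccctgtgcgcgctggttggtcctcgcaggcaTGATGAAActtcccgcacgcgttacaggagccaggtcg
CHAC1, chr15:40953221-40953300, plus strand: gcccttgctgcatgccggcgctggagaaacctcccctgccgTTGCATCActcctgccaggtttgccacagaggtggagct
ATF3, chr1:212565177-212565256, plus strand: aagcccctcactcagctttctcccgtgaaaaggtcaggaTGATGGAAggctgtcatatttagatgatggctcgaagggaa
The match lies 68 bases before the start in ASNS, 209 in CHAC1, where it reads on the opposite strand, and 191 in ATF3. A match describes the letters only and shows no binding.

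Genes of G2 and mitosis had medians above 0 in both pairs, and of the lists with at least 8 tested genes this one had the largest share of members above 0 in both. Of 60 tested members 52 were above 0, a share that 51 of 59 oxidative phosphorylation genes matched. Of the 60, 33 were above 0 in both pairs (26% of all genes were) and 2 below 0 in both. The median log2 difference was 0.25, with 0.13 in replicate 1 and 0.20 in replicate 3. In 14 members both 12 h arrays lay above all 6 h arrays (7.1% of all genes) and in 0 below. None passed the test, and the median was 0.26 without 6 h replicate 1, 0.13 without 6 h replicate 2, 0.12 without 12 h replicate 3, 0.12 with the replicate block and 0.096 with quantile normalization. Set against untreated cells pair by pair, its 6 h medians were 0.03 and -0.12 and the 12 h medians 0.11 and 0.05.

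TACC3, a spindle protein, read 138, 184 and 321 at 6 h and 361 and 406 at 12 h, a log2 difference of 0.93 ± 0.35 (SE). The lowest value was on 6 h replicate 1, and without that array the difference was 0.66. CDC25B, the phosphatase that starts mitotic entry, read 334, 226 and 354 against 550.1 and 418, a difference of 0.68 ± 0.31 (SE). That difference was 0.48 without 6 h replicate 2. KIF4A, a chromosome-bound kinesin, read 559, 453 and 636 against 859 and 734, and FOXM1, the transcription factor of the G2 programme, 248, 178 and 216 against 377 and 258. In these 4 genes both 12 h arrays were above every 6 h array, and the replicate 3 differences were the smaller ones, at 0.34, 0.24, 0.21 and 0.26. KIF23, a kinesin of the central spindle, read 429, 367 and 641 against 683 and 723, and CDCA8, a subunit of the chromosomal passenger complex, 449, 478 and 413 against 561 and 502, with replicate 3 differences of 0.17 and 0.28. KIF20A, another kinesin of cytokinesis, and CENPA, the centromeric histone, were above in both pairs (0.83 and 0.43, and 0.42 and 0.45) with overlapping groups, and CENPA was at -0.09 without 6 h replicate 1. MKI67, TOP2A and CCNB1, textbook markers of cycling cells, split by pair, at -0.36 and 0.44 for MKI67, -0.48 and 0.04 for TOP2A, and -0.13 and 0.20 for CCNB1. In bulk RNA a larger share of cells in mitosis and more RNA per mitotic cell cannot be told apart.

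**Figure D3:**
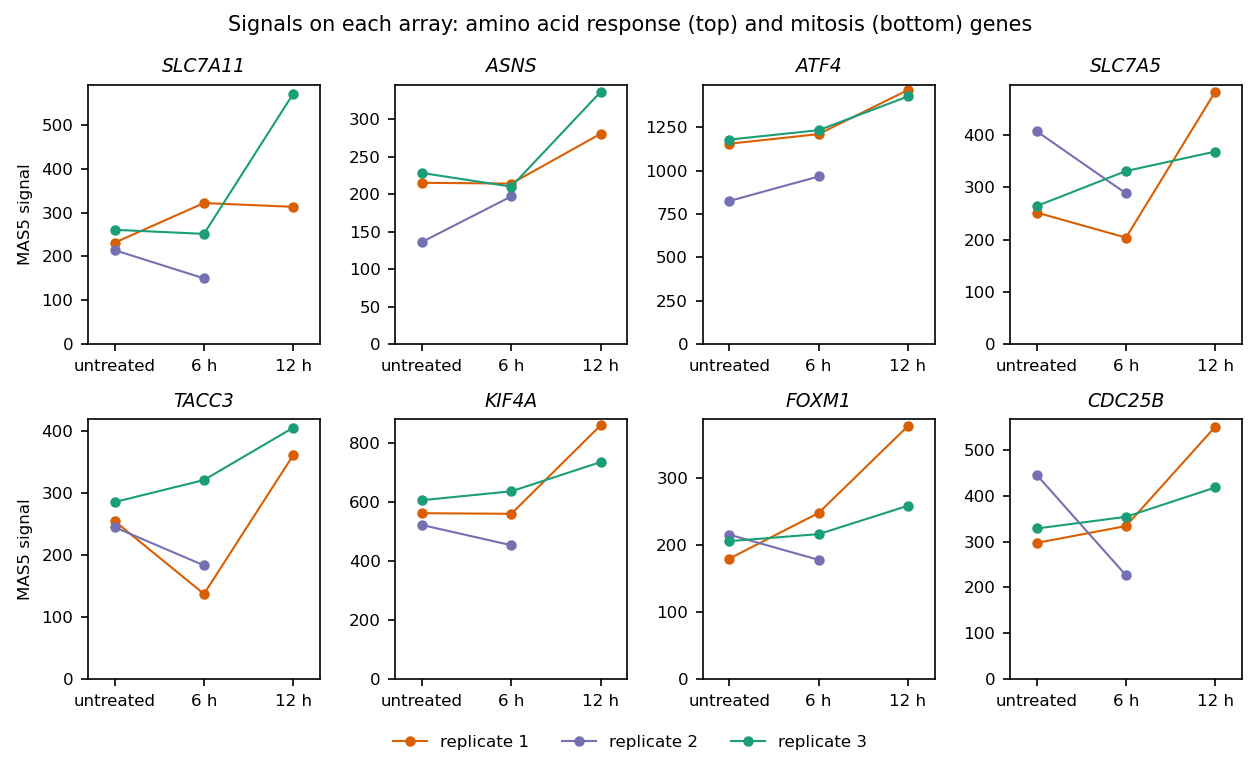
MAS5 signal (linear axis from 0) of 8 genes on every array, untreated, 6 h and 12 h, with arrays of the same replicate number joined. The 12 h arrays of ASNS, ATF4, SLC7A5, TACC3, KIF4A, FOXM1 and CDC25B lie above their 6 h arrays, and SLC7A11 is high on 12 h replicate 3 (571) and not on 12 h replicate 1 (313).

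Promoters of G2 and mitosis genes are known for the CHR element, at which the DREAM and MYB-MuvB complexes bind, near CCAAT boxes bound by NF-Y. With TTTGAA for the CHR and CCAAT for the box, on both strands of the 250 bases before the start, 23 of 50 matched promoters held a CHR (46%, against 9.04% of all tested genes) and 35 a CCAAT box (70%, against 35.5%). Both were present in 20 (40%, against 3.7%), with overlapping matches in 2. This search too was chosen after the values were seen, and higher shares in a list of known mitosis genes are partly built in. Members with a CHR had a median replicate 3 difference of 0.24 and a replicate 1 difference of 0.10, and those without 0.16 and 0.15. Over all tested genes these medians were 0.02 and -0.02 with a CHR and 0.0002 and 0.04 without. Shown are 3 members (GRCh38.p14) that read higher at 12 h on both arrays, with CHR and CCAAT box matches in capitals.
KIF4A, chrX:70290014-70290093, plus strand: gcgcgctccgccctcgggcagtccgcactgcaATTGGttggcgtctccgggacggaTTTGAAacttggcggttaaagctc
KIF23, chr15:69414249-69414328, plus strand: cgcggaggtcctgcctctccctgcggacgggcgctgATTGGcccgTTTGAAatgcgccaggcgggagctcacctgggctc
CDCA8, chr1:37692386-37692505, plus strand: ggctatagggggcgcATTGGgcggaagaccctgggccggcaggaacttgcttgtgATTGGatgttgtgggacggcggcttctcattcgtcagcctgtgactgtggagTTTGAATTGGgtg
The CHR lies 34 bases before the start in KIF4A, 55 in KIF23 and 23 in CDCA8. In CDCA8 it runs into a CCAAT box on the opposite strand, so those capitals hold both.

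Genes of G1/S and DNA replication were higher at 12 h mainly in the replicate 1 pair. Of 51 tested members 41 were above 0, with a median of 0.23 (0.13 without 6 h replicate 2, 0.10 with the replicate block and 0.14 with quantile normalization), but the pair medians were 0.20 and 0.01, and 20 were above 0 in both pairs and 8 below 0 in both. LIG1, the replicative DNA ligase, read 77.4, 64.5 and 121 at 6 h and 133 and 129 at 12 h, and E2F3, an activator of S phase genes, 676, 456 and 671 against 882 and 754. Their replicate 3 differences were 0.10 and 0.17. GINS2, part of the replicative helicase, read 193, 123 and 393 against 400.4 and 355, where 6 h replicate 3 lay among the 12 h arrays. CDT1, a licensing factor, was at 1.13 and 0.23 in the pairs. The E2F letters TTTNNCGC were in 20 of 44 matched promoters of the list (45.5%, against 8.91%), a higher share that is partly built into a list of known replication genes. The replicate 3 medians with and without these letters were -0.03 and 0.04.

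Cholesterol synthesis and uptake genes had 15 of 19 tested members above 0 and a median of 0.18 (0.08 with quantile normalization), with 0.13 and 0.11 in the pairs. IDI1, isopentenyl diphosphate isomerase, gave the same difference in both pairs, 0.57 and 0.57, and all 3 of its other probe sets went the same way. It read 388, 399 and 583 at 6 h and 575 and 867 at 12 h, and the groups overlapped, with replicate 3 the brightest number at each time (log2 difference 0.65 ± 0.32 (SE)). MSMO1, a sterol oxidase, and INSIG1, which retains the SREBP pathway in the endoplasmic reticulum, were at -0.06 and 0.64, and at 0.45 and 0.18. Among members with the smallest p in other lists, PSAP, the saposin precursor, read 928, 496 and 1039.7 against 1380.5 and 1184, TKT, transketolase, 927, 909 and 991 against 1291 and 1079.6, and UGDH, which makes UDP-glucuronate, 523, 591 and 563 against 905 and 695. In all 3 both 12 h arrays were above every 6 h array, with log2 differences of 0.71, 0.33 and 0.51 and replicate 3 differences of 0.19, 0.12 and 0.30. Without 6 h replicate 2 PSAP was at 0.38, and without 12 h replicate 1 TKT was at 0.20 and UGDH at 0.32.

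Several lists had medians above 0 in the replicate 1 pair and near or below 0 in the replicate 3 pair. SRF target and actin genes had 24 of 28 tested members above 0 and a median of 0.17 (0.08 without 6 h replicate 1 and 0.07 with quantile normalization). The pair medians were 0.38 and -0.10, with 25 members above 0 in replicate 1 and 6 in replicate 3. ACTA2, smooth muscle actin, read 2629, 5304 and 7565 at 6 h and 7029.5 and 7622 at 12 h. On 6 h replicate 1 it was under every other array, and the replicate 3 pair differed by 0.01. Neither of the 2 other probe sets of ACTA2 went the same way. YAP and TEAD targets had pair medians of 0.37 and -0.12, with 6 of 19 tested members above 0 in replicate 3, and CCN2, a matricellular growth factor and YAP target, read 394, 2451 and 2539 at 6 h and 2053 and 1712 at 12 h. Without 6 h replicate 1 the CCN2 difference was -0.41, against 0.48 with it. Matrix proteases and inhibitors had the widest split of the lists with at least 8 tested genes, 0.79 and -0.15. ADAM12, a metalloprotease, read 87.1, 381 and 715 against 561 and 734, and ADAMTS1, which cleaves proteoglycans, 71.4, 225 and 446 against 366 and 403, with replicate 3 differences of 0.04 and -0.15. In 4 of 19 tested members both pairs were above 0 (26% of all genes). RECK, a membrane inhibitor of matrix proteases, was 1 of them, at 0.79 and 0.24.

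MHC class I genes followed the same split, with pair medians of 0.54 and -0.11 with 11 of 15 tested members above 0 in replicate 1, 1 in replicate 3 and 0 in both. HLA-G read 624, 887 and 1840.3 at 6 h and 1469 and 1702 at 12 h and HLA-C 1620.5, 2124 and 2703 and 2876 and 2581, and probe sets of HLA genes can share sequence, so single members are uncertain. Their replicate 3 differences were -0.11 and -0.07. Immediate early and AP-1 genes had pair medians of 0.40 and -0.16, and EGR1, a growth-signal factor, read 70.6, 213 and 384 against 211 and 471, with 0.29 in replicate 3. Metallothioneins and zinc response genes had 0.45 and 0.01, and single metallothioneins are uncertain for the same reason. MT1X read 514, 639 and 1121 at 6 h and 1397 and 1275 at 12 h, and MT2A 932, 1022 and 1921 and 1777 and 1854, with replicate 3 differences of 0.19 and -0.05.

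The untreated arrays place these differences on the 6 h side of replicate 1. There the 6 h minus untreated medians were -0.74 for matrix proteases, -0.72 for metallothioneins, -0.40 for YAP targets, -0.38 for MHC class I, -0.27 for SRF targets and -0.23 for immediate early genes. In replicate 3 the same medians were 0.19, 0.08, 0.09, 0.08, 0.21 and 0.15. The 12 h minus untreated medians of replicate 1 were nearer 0, at -0.02, -0.08, 0.21, 0.16, 0.13 and 0.03. These values share arrays with the 12 h against 6 h differences and are not separate evidence.

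**Figure D4:**
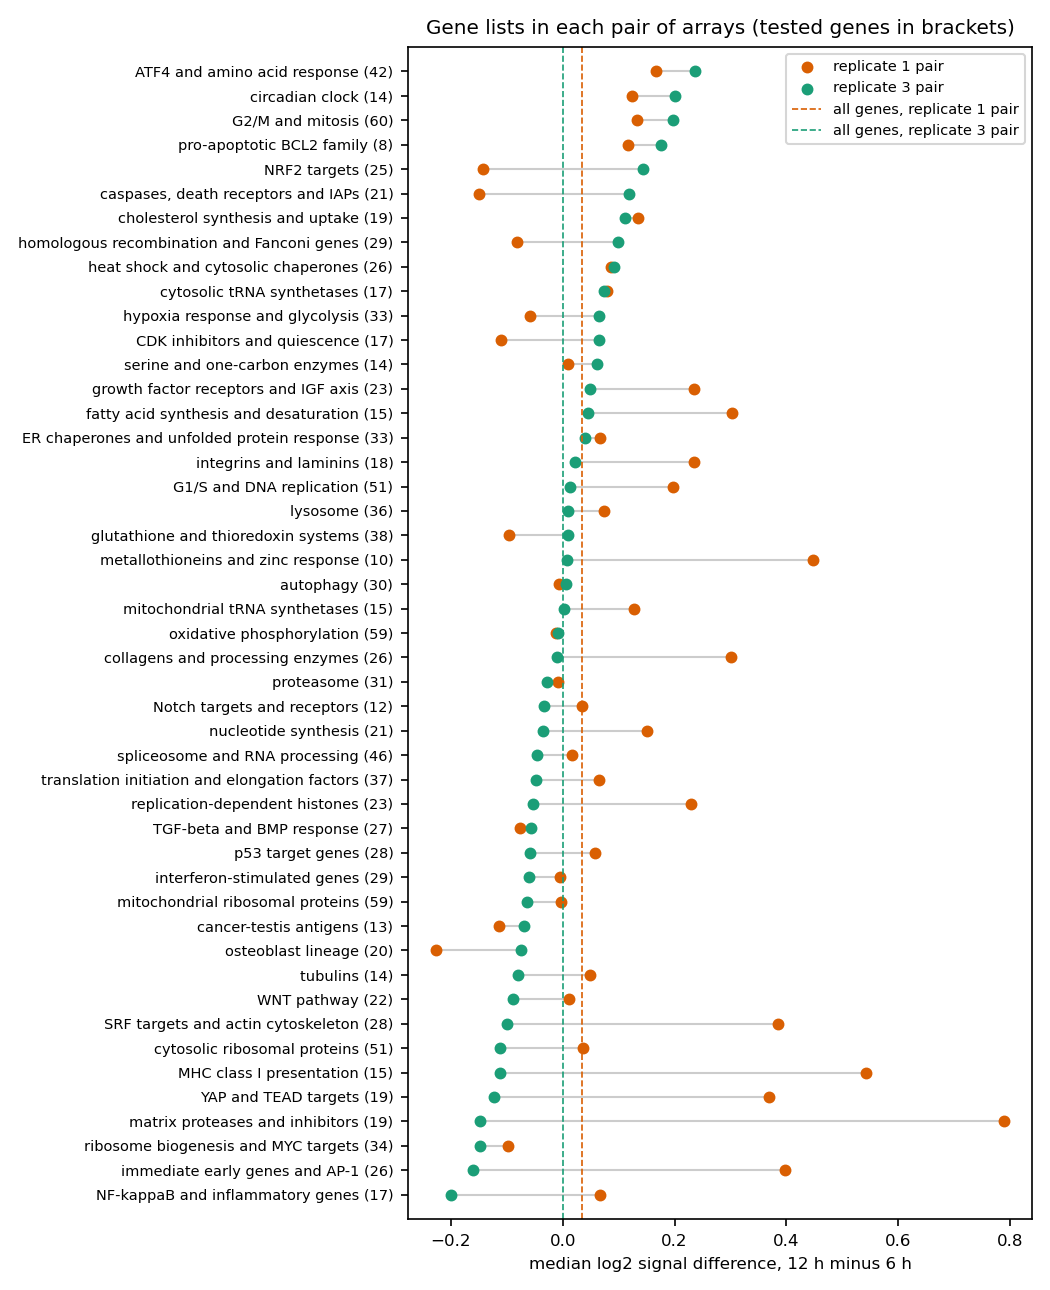
Median log2 difference in MAS5 signal, 12 h minus 6 h, of each gene list with at least 8 tested genes, in the replicate 1 pair (orange) and the replicate 3 pair (green), with dashed lines for all genes tested. ATF4 and G2/M genes lie to the right in both pairs (0.17 and 0.24, 0.13 and 0.20), while matrix proteases run from 0.79 in replicate 1 to -0.15 in replicate 3.

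No gene of arrest or damage passed the test, and the 12 h and 6 h values of CDKN1A, MDM2, HMOX1 and MYC overlapped. CDKN1A, the CDK inhibitor p21, read 283, 113 and 153 at 6 h and 115 and 112 at 12 h. Its highest value was on 6 h replicate 1, and the log2 difference of -0.58 ± 0.38 (SE) was -0.21 without that array. MDM2, the ubiquitin ligase of p53, read 350.3, 325 and 445 against 579 and 442, with pair differences of 0.73 and -0.01, and 4 of its 9 other probe sets went the same way. HMOX1, the heme-degrading NRF2 target, was at -0.56 and 0.49 in the pairs. MYC was lower in both, at -0.39 and -0.22, with overlapping groups. The 28 tested p53 target genes had 15 above 0 and pair medians of 0.06 and -0.06. In 2 of them, PERP (above) included, both 12 h arrays lay above all 6 h arrays, and in 1 below (7.1% and 4.5% of all genes). The log2 difference of PERP was 2.08, and 0.36 without 6 h replicate 1.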

How the data were processed

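Each sample was hybridised to 1 Affymetrix 3′ expression array as biotin-labelled cRNA (labels' protocols). Per the submitters' processing notes MAS5 gave the deposited values, which are linear probe-set intensity, and its version and settings are not given in the sources used here. Of 54675 probe sets 62 were controls, 41091 had 1 gene symbol in the platform annotation, 1801 had several and 11721 none, and the brightest probe set with 1 symbol stood for a gene. Before log2 was taken, signals below the 10th percentile of the table (2.385) were raised to that value, which understates differences of dim genes. Genes were tested where the mean log2 signal exceeded the median of all probe sets (4.216). The test was limma 3.58.1 in R 4.3.3 (lmFit, eBayes with a variance trend), 3 groups in 1 fit, two-sided, with Benjamini-Hochberg adjustment over all genes tested and a threshold of 0.05. Pair differences are 12 h minus 6 h log2 signals of the same replicate number.

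The members and the gene lists, 53 in number with 5 of cell type markers, were chosen with earlier results of these data known, so lists are described by counts and medians and not tested. Named genes were the 12 largest differences each way with both 12 h arrays above or below all 6 h arrays, the 12 each way with the largest smaller pair difference (mean signal of at least 50 in both rules), up to 4 members of a list with the smallest p, and a set of stress, cycle and cytoskeleton genes, and exceptions are said to be chosen after their values were seen. Part of these is not reported here, and genes without a probe set of their own were not analysed here.

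The pairing comes from replicate numbers in the labels. Across genes, deviations from the group means correlated at 0.108 to 0.637 in the 7 same-numbered pairs of arrays and at -0.576 to 0.333 in the 14 others, a contrast partly built in since deviations within a group sum to 0. Repeats used the replicate block, other sets of arrays, quantile normalization, median centring, a floor at 1, a pseudocount of 32, other filters, averaged or single probe sets, no variance trend, array weights and each array left out in turn. The fit was tested on simulated data (10 simulations of 200 changed genes). Promoters are RefSeq sequences of GRCh38.p14, matched by symbol for 9890 of the 12063 tested genes.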

Additional observations from a re-analysis of the deposited data

How the results depend on the processing

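The count of genes past the threshold was 0 under all 28 other settings run with limma, with 33 to 599 genes at an unadjusted p under 0.05. The highest of these counts was without 6 h replicate 3, and the smallest adjusted p over the settings was 0.451, with arrays centred on their median. That centring moved the median of all genes from 0.06 to 0.65, the ATF4 list median to 0.86, the G2/M list median to 0.83 and the share of genes with the same sign in both pairs from 49.6% to 58.8%, so these differ by the shift itself. With the replicate block, the fit for the pairing, the count was 0 with 297 genes at an unadjusted p under 0.05. It changed no call. Leaving out 1 array at a time, the ATF4 median ran from 0.22 to 0.34 and the G2/M median from 0.12 to 0.33, lowest without 12 h replicate 3. Quantile normalization gave 0.17 for the ATF4 median and 0.096 for the G2/M median. The number of arrays limits the precision: the median SE was 0.39, and 0.35 without both replicate 2 arrays.

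Of 114 genes followed, which are those named here and all that the naming rule took by separation or by pair, 62 kept the sign of their log2 difference under every setting and 52 changed it under at least 1. None of these genes passed the test, and the cause was not tested beyond what each setting leaves out. The 3 settings first given were added after the data were seen. Without 6 h replicate 1, with the replicate block, the differences were TOP2A -0.075, KRT18 0.054, ACTB -0.034, DSG2 -0.30, GPX1 -0.33, TES -0.024, CNN1 -0.027, SELENOP 0.70, VCAN 0.49, STC2 0.40, THBS2 -0.21, TRIB3 0.063, CDT1 -0.026, CCN2 -0.67, MT2A -0.27, EPHA5-AS1 -0.069 and KIF7 -0.35. Without that array and both replicate 2 arrays they were TOP2A -0.41, IBSP 0.026, KRT18 0.087, TUBB3 -0.20, ACTB -0.32, DSG2 -0.14, GPX1 -0.076, CNN1 -0.16, TAGLN -0.054, SELENOP 0.83, VCAN 0.11, STC2 0.51, TRIB3 0.68, CENPA -0.094, GINS2 -0.060, ACTA2 -0.047, CCN2 -0.44, ADAM12 -0.16, ADAMTS1 -0.22, HLA-G -0.22, MT2A -0.082, SPARC -0.10, EGR1 -0.28 and KIF7 -0.24. The same with the block gave TOP2A -0.038, KRT18 0.16, TUBB3 -0.12, ACTB -0.078, GPX1 -0.011, CNN1 -0.11, TAGLN -0.063, SELENOP 0.48, VCAN 0.32, A2M 0.047, STC2 0.36, TRIB3 0.60, GINS2 -0.068, CCN2 -0.66, ADAM12 -0.018, ADAMTS1 -0.072, HLA-C -0.013, HLA-G -0.064, MT2A -0.16, MDM2 -0.011, SPARC -0.082 and KIF7 -0.61. Centring on the median gave MYC 0.30, IBSP 0.45, KRT18 0.39, A2M 0.035, TRIB3 0.34, CDKN1A 0.0060, CNN3 0.13, IGF2BP2 0.20 and SPSB2 0.23, and quantile normalization TOP2A -0.095, CCNB1 -0.055, AARS1 -0.011, IBSP 0.40, TCEA2 0.014, RUNX2 -0.041, COL1A1 -0.081, GLRX -0.0097 and SPSB2 0.37. The mean of a gene's probe sets gave CCNB1 -0.023, ASNS -0.27, ATF3 -0.63, MDM2 -0.28, RUNX2 -0.26, COL1A1 -0.21, SYT15 -0.34 and AP2A1 0.020. The replicate block on all 8 arrays gave TOP2A -0.21, CCNB1 -0.019, ACTB -0.034, TRIB3 0.048, DDIT4 -0.017, RUNX2 -0.024, COL1A1 -0.12, GLRX -0.21 and KIF7 -0.67. Without both replicate 2 arrays, with or without the block, and with the block on the 5 treated or the 4 paired arrays, the values were TOP2A -0.22, AARS1 -0.0027, ACTB -0.052, TRIB3 0.26, DDIT4 -0.26, HMOX1 -0.037, RUNX2 -0.047, SP7 -0.13, COL1A1 -0.17, GLRX -0.073 and KIF7 -0.84. Array weights with the block gave TOP2A -0.11, ACTB -0.059, TRIB3 0.31, CCN2 -0.047, COL1A1 -0.0046 and KIF7 -0.62, array weights alone TOP2A -0.049, ACTB -0.033 and KIF7 -0.098 and the pseudocount of 32 KIF7 -0.088. With 1 array left out at a time the ranges were MYC -0.63 to 0.054, MKI67 -0.011 to 0.37, TOP2A -0.38 to 0.51, CCNB1 -0.0070 to 0.17, AARS1 -0.13 to 0.39, IBSP -0.59 to 0.32, KRT18 -0.71 to 0.46, ACTB -0.15 to 0.21, GPX1 -0.090 to 3.01, SELENOP -1.43 to 0.95, VCAN -1.17 to 0.17, A2M -0.96 to 0.11, STC2 -1.15 to 0.20, TRIB3 -0.71 to 0.26, DDIT4 -0.34 to 0.76, CENPA -0.28 to 0.80, CCN2 -0.41 to 0.93, HMOX1 -0.11 to 0.58, RUNX2 -0.047 to 0.32, SP7 -0.13 to 0.68, COL1A1 -0.17 to 0.23, GLRX -0.42 to 0.59, CNN3 -1.41 to 0.50, SYT15 -0.68 to 1.29, TEAD3 -0.94 to 1.13, FOXC2 -0.29 to 0.71, SPSB2 -1.05 to 0.11 and KIF7 -0.84 to 0.87.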

Other observations

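No member of the other gene groups passed the test. Collagens and their processing enzymes had pair medians of 0.30 and -0.01, with 9 of 26 tested members above 0 in both pairs. Circadian clock genes were above 0 in both pairs by their medians (0.12 and 0.20), with 5 of 14 tested members above 0 in both and 0 below in both. The main difference had only 8 of 14 above 0. Ribosome genes leaned the other way in replicate 3. Cytosolic ribosomal proteins had pair medians of 0.04 and -0.11, with 3 of 51 tested members above 0 in replicate 3. Of the 51, 2 were above 0 in both pairs and 18 below 0 in both (26% and 23.6% of all genes). Mitochondrial ribosomal proteins had 6 of 59 above in both and 21 below. Over all arrays, though, 38 of 51 and 44 of 59 were above 0, with medians of 0.04 and 0.12. Without 6 h replicate 2, which has no 12 h partner, these medians were -0.02 and -0.02 (0.02 over all genes). Ribosome biogenesis and MYC target genes had pair medians of -0.10 and -0.15, with 6 of 34 above in both pairs and 13 below. Over all arrays 19 of those 34 were above 0. Probe sets of cytosolic ribosomal proteins can share sequence with pseudogenes. Oxidative phosphorylation genes had pair medians of -0.01 and -0.01, and proteasome genes -0.01 and -0.03. Over all arrays 51 of 59 and 27 of 31 of them were above 0, with medians of 0.14 and 0.09. Without 6 h replicate 2 these medians were -0.01 and -0.03.

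Bright genes with the largest differences in the replicate 3 pair, chosen after their values were seen, were mostly not repeated in replicate 1. Of those higher at 12 h, ARID1B, a subunit of BAF chromatin remodelers, differed by 1.39 in replicate 3 and 0.40 in replicate 1, and GLRX, glutaredoxin, by 1.07 and -1.22. Of those lower, CNN3, an actin-binding calponin, read 3518 at 6 h and 1567 at 12 h in replicate 3 but 5339 and 5918 in replicate 1. IGF2BP2, an RNA-binding protein, differed by -1.20 and 0.15. DDX59, an RNA helicase, was lower in both, by -1.07 and -0.42, with both 12 h arrays (98.9 and 86.1) under all 6 h arrays (132, 163 and 181).

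Genes high on 6 h replicate 1 alone included A2M, a protease inhibitor (2163 against 341 to 605), and STC2, a secreted glycoprotein of stressed cells (706 against 96.1 to 178). SP7, an osteoblast transcription factor, was highest there too (272), but read 176 on 12 h replicate 1 and 88.8 to 123.5 on the other 6 arrays.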
